A study of Drosophila melanogaster with 26 samples.

Results

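The 7 genes described here are the core RNA interference genes of Drosophila melanogaster: Dcr-2 (CG6493), r2d2 (CG7138), AGO2 (CG7439), loqs (CG6866), Dcr-1 (CG4792), AGO1 (CG6671) and AGO3 (CG40300). They were chosen by name and are 7 of the 14659 features in the deposited table. Dcr-2 has a special place among them, because every cross also carried a UAS-Dcr2 transgene that a GAL4 driver switched on. Its partners were not driven.

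RNA was sequenced from the fat body, the storage and metabolic organ of the larva, of female larvae in the wandering stage of the third instar. Their food held 0.7 M sucrose (high sugar) or 0.15 M sucrose (control diet). There were 3 crosses, each with both diets. The w1118 cg cross had 6 high-sugar and 6 control libraries, the w1118 r4 cross had 3 and 3, and the 60100 r4 cross had 4 and 4. Fathers came from the VDRC stocks w1118 (60000 in the genotype label) or 60100, and mothers carried UAS-Dcr2 on the X chromosome together with cg-GAL4 or r4-GAL4. All 26 libraries thus came from larvae with driven Dcr-2, and none came from larvae without it. The larvae served the submitters as controls for RNAi lines that were not analysed here. The cg-GAL4 line uses regulatory DNA of the collagen IV gene region and is active in haemocytes as well as fat body, and r4-GAL4 is a fat body line. Fat bodies were dissected or sheared off and spun down, and the labels do not say which library was made in which way.

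In RNA interference, Dicer-2 cuts long double-stranded RNA into small interfering RNAs, R2D2 helps to load them, and Argonaute-2 uses them to cut matching transcripts. Dicer-1, together with a Loquacious isoform, cuts microRNA precursors, and Argonaute-1 carries most microRNAs. Argonaute-3 belongs to the piRNA pathway, which silences transposons in the germline. UAS-Dcr2 is often added to RNAi crosses because extra Dicer-2 strengthens the knockdown.

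The deposited table names no unit. Levels below were read as length-scaled expression values divided by the upper quartile of their library, so that a level of 1 is the upper quartile. The library numbers in the titles form 5 series: 13-21 and 49-54 for w1118 cg, 55-63 for w1118 r4, and 67-76 and 83-92 for 60100 r4. Each series holds both diets, and what a series stands for is not stated. By the number of features at 1 or above, the libraries form 4 scaling sets. That number was 2402 in every library of series 13-21, 2080 in 49-54, 2117 in 55-63 and 2464 in 67-76 and 83-92. The divisor was therefore read as taken over a different feature set in each. The diets were therefore compared within series, while crosses differ in series as well as in driver or stock. Sequencing depth is unknown, and the features listed above 0 numbered 6183 to 8709 per library. The 9 fat body markers, such as the larval serum proteins, summed to 5348.3 to 15036.0 across all libraries, and none of them was at 0 in any group. In series 49-54 this sum was 10564.1 to 12338.8 on high sugar and 5348.3 to 7229.4 on the control diet. The 60100 r4 cross went the other way, with 9499.4 to 13175.8 on high sugar and 13955.8 to 15036.0 on the control diet. The diets overlapped in series 13-21 and 55-63. The part of these shifts in the results below was not tested.

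Dcr-2 was by far the most abundant of the 7 genes and had a lower mean on high sugar in all 3 crosses. In w1118 cg, high-sugar libraries had 19.7, 19.6 and 17.6 in series 13-21 and 14.1, 19.7 and 26.6 in series 49-54. Control libraries of w1118 cg had 60.7, 53.9 and 50.3 in series 13-21 and 81.0, 75.4 and 66.7 in series 49-54. Every high-sugar library of this cross lay below every control library, a complete separation in that direction seen in 0.899% of the 6896 features tested. In w1118 r4, Dcr-2 had 19.7, 15.2 and 7.19 in high-sugar libraries, against 30.2, 50.2 and 18 in control libraries. In 60100 r4, it had 10.9, 4.21, 6.11 and 18 in high-sugar libraries, against 17.8, 36.4, 14.9 and 24.3 in control libraries. The diets overlapped in both r4 crosses, where 1 high-sugar library each reached the lowest control libraries.

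**Figure D1:**
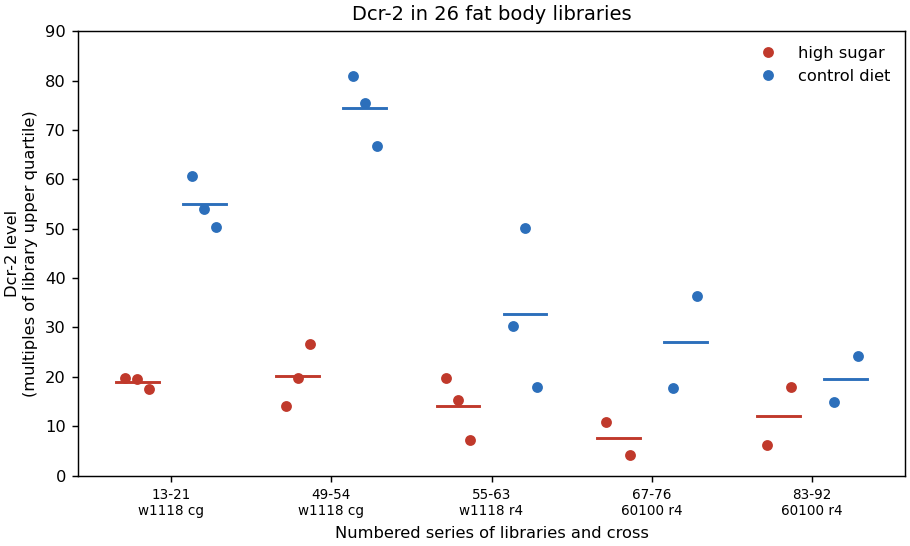
Dcr-2 level in each of the 26 libraries, in multiples of the library's upper quartile on a linear axis, by numbered series and cross. Points are libraries and bars are means of a series and diet; the w1118 cg control libraries sit between 50.3 and 81.0, above all high-sugar libraries, while the r4 crosses overlap between diets.

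Within series, Dcr-2 fell by 1.5 ± 0.21 log2 units on high sugar (SE, 13 against 13 libraries, limma, adjusted p = 3.63e-05, 95% interval -1.94 to -1.06). That is a level of 0.354 times that of the control diet on the log2(value + 0.1) scale. Mean levels ± SD were 19.5 ± 4.07 on high sugar and 64.7 ± 12.0 on the control diet in w1118 cg (n = 6 each). In w1118 r4 they were 14 ± 6.35 on high sugar and 32.8 ± 16.2 on the control diet (n = 3 each). In 60100 r4 they were 9.80 ± 6.15 on high sugar and 23.3 ± 9.57 on the control diet (n = 4 each). The log2 difference was below 0 in each of the 5 series, at -1.53 in 13-21, -1.92 in 49-54, -1.21 in 55-63, -1.89 in 67-76 and -0.85 in 83-92. The diets did not overlap in 13-21, 49-54 and 67-76, where 9.96%, 18.6% and 37.7% of all features had every high-sugar library lower. Reads of the transgene and of the native Dcr-2 gene count towards 1 value, so the share of either in the fall cannot be told apart. Nor can fewer cells that express it be told apart from less RNA per cell.

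Taken by cross, the Dcr-2 change was -1.73 ± 0.32 in w1118 cg (SE, limma adjusted p = 0.00149), -1.21 ± 0.46 in w1118 r4 (adjusted p = 0.0742) and -1.37 ± 0.40 in 60100 r4 (adjusted p = 0.0210). It was the 1 member of 6 called in w1118 cg, where 9.45% of all features were called and 3.9% as lower, and the 1 member of 6 called in 60100 r4, where 20.6% were called and 14.4% as lower. Single libraries decided the calls of the r4 crosses. The 60100 r4 change did not pass with library 68 (-1.06), 76 (-1), 84 (-1.34) or 91 (-1.17) left out. The w1118 r4 change passed with library 57 (-1.58), 61 (-1.52), 76 or 92 (-1.21 for both) left out. The change in w1118 cg was not shown to differ from that in w1118 r4 (difference -0.51, 95% interval -1.68 to 0.65). The 60100 r4 change differed from that in w1118 r4 by -0.16 (SE 0.60), a comparison in which 0 of 6 members passed (limma; 1 at an unadjusted p under 0.05, AGO1) and 1.91% of all features did. The joint test over the 3 crosses gave Dcr-2 an adjusted p of 0.757. Ranked among all 14659 features of a library, with 1 the highest, Dcr-2 had a median rank of 256.5 on high sugar and 96.5 on the control diet in w1118 cg. For w1118 r4 the median rank was 278 on high sugar and 158 on the control diet, and for 60100 r4 it was 617.5 on high sugar and 270 on the control diet. Its best rank in any library was 46, in a control w1118 cg library, and its lowest was 997, in a high-sugar 60100 r4 library.

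Markers of other cells were read beside Dcr-2. Of 10 haemocyte markers, 9 were tested, and 6 of these fell on high sugar while 0 rose (limma; 7 lower and 0 higher at an unadjusted p under 0.05), beside 17.2% lower and 11.1% higher of all features, with a median log2 change of -0.56. Their sum in w1118 cg ran from 26.4 to 64.0 on high sugar and 24.3 to 321.5 on the control diet. The sum was higher on high sugar in w1118 r4, at 123.9 to 193.6 against 27.3 to 92.5 on the control diet. In 60100 r4 the diets overlapped, at 111.6 to 182.4 on high sugar and 90.8 to 135.7 on the control diet, with the higher median on high sugar. The list median was -0.95 in w1118 r4 and -0.37 in 60100 r4, so sum and list median differ in sign in the r4 crosses. Among w1118 cg libraries this median was -0.90. Of the 9 tested markers, 5 were called lower there and 0 higher (limma), beside 3.9% of all features lower. At an unadjusted p under 0.05, 7 were lower and 0 higher. The w1118 r4 cross had 3 markers lower, beside 9.02% of all features, while 60100 r4 had 1, beside 14.4%. Nplp2 had a mean of 89.2 over all libraries, against 2.66 for Pxn, the next highest marker, so the sum mostly follows Nplp2. The crystal cell factor lz was at 0 in all groups, and He was at 0 in 60100 r4 on both diets and in w1118 r4 on high sugar. The median of the haemocyte list was -0.04 in series 13-21, in which Dcr-2 fell by 1.53, and -2.02 in 49-54, in which Dcr-2 fell by 1.92. The sum over 4 Malpighian tubule markers in w1118 cg ran from 6.05 to 18.5 on high sugar and 14.9 to 28 on the control diet. For w1118 r4 that sum was 4.11 to 5.78 on high sugar, against 6.40 to 9.63 on the control diet, and for 60100 r4 it was 4.10 to 7.68, against 7.58 to 14.7. Of these, 3 were tested and 1 fell, beside the same 17.2%. Irk3 was at 0 in w1118 r4. The part of either cell type in the Dcr-2 result was not tested.

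The undriven partners were far less abundant than Dcr-2. AGO2 was the highest of them, at 0.870 to 4.57, followed by AGO1 at 0.0479 to 1.89. The remaining 4 stayed below the upper quartile in every library: r2d2 at 0.00683 to 0.550, Dcr-1 at 0.0511 to 0.168, loqs at up to 0.670 and AGO3 at up to 0.216. Whether listed zeros of loqs and AGO3 are failed estimates was not tested. Among features with a mean of 5 or more, 31 were listed at 0 in some library, such as Lcp1, LysD and PGRP-SC2. No ribosomal protein gene with such a mean was among them. AGO3 had a mean below 0.1 and was not tested, so 6 of the 7 genes entered the tests. For diet within series, 1 of these 6 passed, Dcr-2, against 28.3% of all 6896 tested features. Those lower on high sugar made up 17.2% of the tested features and those higher 11.1%.

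**Figure D2:**
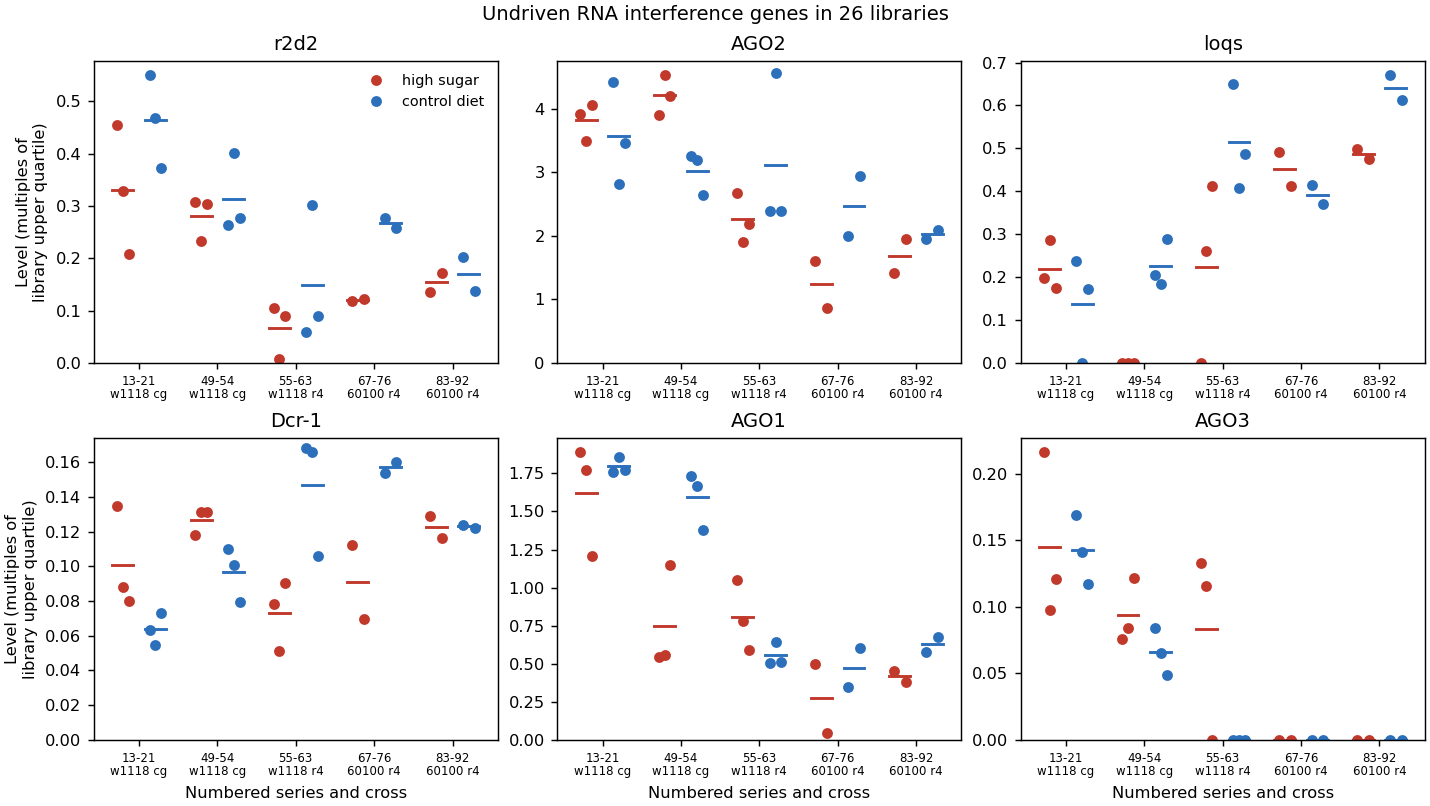
Levels of the 6 undriven genes in the 26 libraries, in multiples of the library's upper quartile on linear axes that differ between panels, by numbered series and cross. Points are libraries and bars are means of a series and diet; no level exceeds 4.57, that of AGO2 in a control w1118 r4 library, and AGO3 is listed at 0 in all 60100 r4 libraries.

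Among the partners of the siRNA branch, r2d2, whose protein binds Dicer-2, ran in w1118 cg from 0.209 over a median of 0.305 to 0.454 on high sugar, and from 0.263 over 0.387 to 0.550 on the control diet. In w1118 r4 it had 0.106, 0.00683 and 0.0897 in high-sugar libraries and 0.0586, 0.302 and 0.0890 in control libraries. In 60100 r4 it had 0.118, 0.123, 0.136 and 0.172 in high-sugar libraries and 0.278, 0.258, 0.203 and 0.137 in control libraries. The diets overlapped in all 3 crosses. Its change within series was -0.37 ± 0.14 and did not pass (SE, limma adjusted p = 0.0581).

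AGO2, the slicing Argonaute of the siRNA branch, ran in w1118 cg from 3.49 over a median of 4 to 4.54 on high sugar, and from 2.64 over 3.23 to 4.42 on the control diet. In w1118 r4 it had 2.68, 1.91 and 2.19 in high-sugar libraries and 2.39, 4.57 and 2.39 in control libraries. In 60100 r4 it had 1.61, 0.870, 1.41 and 1.96 in high-sugar libraries and 2, 2.95, 1.96 and 2.09 in control libraries. Again the diets overlapped in all 3 crosses, and the change within series was -0.15 ± 0.15 (SE, limma adjusted p = 0.479, 95% interval -0.45 to 0.16). The direction was not the same throughout: in series 49-54 every high-sugar library was higher, and in 67-76 every one was lower, as were 18.9% and 37.7% of all features.

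Loquacious isoforms serve either Dicer, and the table holds 1 value for the gene. In 60100 r4, loqs had 0.491, 0.413, 0.498 and 0.476 in high-sugar libraries and 0.414, 0.370, 0.670 and 0.613 in control libraries. In w1118 r4 it was listed at 0 in 1 high-sugar library, with 0.261 and 0.413 in the others, and had 0.651, 0.408 and 0.488 in control libraries. In w1118 cg it was listed at 0 in the 3 high-sugar libraries of series 49-54, with 0.197, 0.286 and 0.175 in those of 13-21. The control libraries of w1118 cg had 0.237, 0.173, 0.205, 0.183 and 0.288, with 1 listed at 0. Its change of -0.56 ± 0.27 includes these zeros and did not pass (SE, limma adjusted p = 0.121).

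Dcr-1, the microRNA paralogue of Dcr-2, had diet differences of opposite sign in the crosses. In w1118 r4, high-sugar libraries had 0.0782, 0.0511 and 0.0906, against 0.168, 0.166 and 0.106 in control libraries. All 3 high-sugar libraries were lower, as for 17.9% of all features, and the fall of 0.51 ± 0.17 log2 units passed (SE, limma adjusted p = 0.0436). It was the 1 member of 6 called in this cross, in which 15.8% of all features were called, 9.02% as lower. In w1118 cg, Dcr-1 ran from 0.0798 over a median of 0.124 to 0.135 on high sugar, and from 0.0547 over 0.0764 to 0.110 on the control diet. There every high-sugar library was higher within series 13-21 and within 49-54, as for 10.4% and 18.9% of all features, and the change of 0.25 ± 0.12 did not pass (adjusted p = 0.214). In 60100 r4 it had 0.112, 0.0698, 0.129 and 0.116 in high-sugar libraries and 0.154, 0.160, 0.124 and 0.122 in control libraries, a change of -0.22 that did not pass.

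The diet effect on Dcr-1 differed between w1118 cg and w1118 r4 by 0.75 ± 0.20 log2 units (SE, limma adjusted p = 0.0428) and over the 3 crosses jointly (adjusted p = 0.0489). Dcr-1 was the 1 member of 6 called in either test, with 4.29% and 7.27% of all features called. Both p-values lie close to the threshold: the difference passed under 20 of 39 alternatives (adjusted p from 0.0193 to 0.509), the joint test under 8 of 39 and the w1118 r4 change under 25 of 39. The joint call was lost with any of series 13-21 (adjusted p = 0.147), 49-54 (0.107), 67-76 (0.106) and 83-92 (0.0538) left out, with median-of-ratios scaling (0.0647) and with most single libraries left out. After quantile normalization the w1118 r4 change was 0.04, the difference was 0.35 and the joint adjusted p was 0.615, so the calls were lost and the direction in w1118 r4 turned. The call in w1118 r4 was also lost with series 13-21, 49-54 or 83-92 left out, at adjusted p of 0.0537, 0.0615 and 0.0528, and with library 55 (-0.44), 56 (-0.45), 61 (-0.53) or 62 (-0.41) of that cross, or 13, 20, 54, 67 or 75 of the others (-0.51 each), left out. Over all crosses the Dcr-1 change was -0.07 ± 0.10 (adjusted p = 0.629).

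AGO1, the microRNA Argonaute, had 1.89, 1.77 and 1.21 in the high-sugar libraries of series 13-21 and 0.547, 0.555 and 1.15 in those of 49-54. The w1118 cg control libraries were close together, from 1.38 over a median of 1.74 to 1.86. In w1118 r4 it had 1.05, 0.778 and 0.591 in high-sugar libraries and 0.507, 0.644 and 0.513 in control libraries, and in 60100 r4 it had 0.501, 0.0479, 0.452 and 0.382 in high-sugar libraries and 0.349, 0.602, 0.577 and 0.678 in control libraries. The diets overlapped in each cross, and the change within series was -0.40 ± 0.20 (SE, limma adjusted p = 0.136). The lowest AGO1 level of all, 0.0479, came from high-sugar library 76 of 60100 r4, which also had the lowest Dcr-2 and AGO2 levels of the 26 libraries.

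AGO3, the piRNA Argonaute, had a value above 0 in all 12 libraries of w1118 cg and in few others. High-sugar libraries of this cross had 0.216, 0.0974, 0.121, 0.0761, 0.0841 and 0.122, and control libraries had 0.169, 0.141, 0.117, 0.0844, 0.0652 and 0.0489. The diets overlapped. In w1118 r4, 2 high-sugar libraries had 0.133 and 0.116 and 1 was listed at 0, as were all 3 control libraries. In 60100 r4 it was listed at 0 in all 4 high-sugar and all 4 control libraries. The 8 germline markers summed to at most 0.526 in any library, and osk, zpg and otu were at 0 in all groups.

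**Figure D3:**
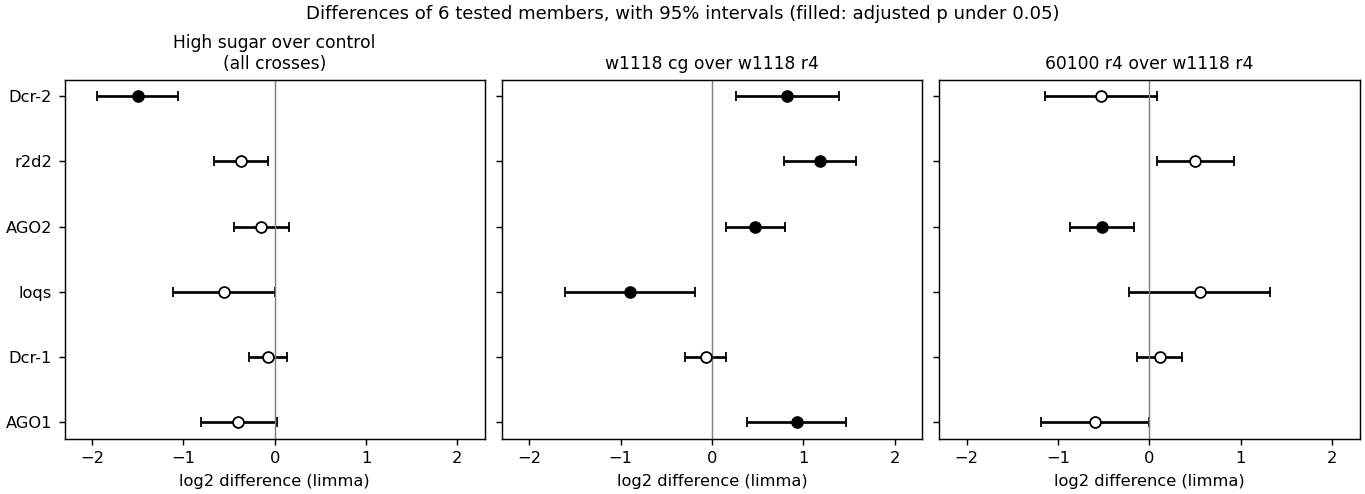
Log2 differences of the 6 tested genes from limma with 95% intervals, for high sugar over control within series, and, as averages of the diets, w1118 cg over w1118 r4 and 60100 r4 over w1118 r4. Filled points passed an adjusted p of 0.05; for diet this is Dcr-2 at -1.5, while r2d2, AGO2, Dcr-2, AGO1 and loqs passed for w1118 cg over w1118 r4 and AGO2 passed for 60100 r4 over w1118 r4.

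A ratio of 2 genes within a library does not depend on how the library was scaled, and Dcr-1 served as the main partner. Dcr-1 itself was low, with a mean of 0.108 over the 26 libraries, so this ratio rests on a small divisor. The Dcr-2 level was 47.4 to 985.2 times that of Dcr-1 in the 26 libraries. In w1118 cg the ratio ran from 119.5 over a median of 176.6 to 222.2 on high sugar, and from 687.3 over 790.6 to 985.2 on the control diet, with no overlap. In w1118 r4 it was 252.1, 297.6 and 79.3 in high-sugar libraries and 180.2, 302.4 and 169.4 in control libraries. In 60100 r4 it was 97.1, 60.4, 47.4 and 155.0 in high-sugar libraries and 115.3, 227.1, 120.4 and 198.7 in control libraries. Both r4 crosses overlapped, and in w1118 r4 the high-sugar median was the higher one.

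Within series, the ratio was lower on high sugar by a log2 difference of -1.38, or 0.383 times that of the control diet (exact permutation of diet labels within series, two-sided, p = 0.000375, 0.00113 after adjustment over 3 ratio tests). With AGO2 as the partner the difference was -1.35 (exact permutation p = 3.47e-05), and with AGO1 it was -0.98 (exact permutation p = 0.000812). With r2d2 it was -0.80 and did not pass (exact permutation p = 0.0611), and with the mean of the 4 partners above 0 in every library it was -1.13 (exact permutation p = 0.000250). The r2d2 level was only 0.00683 in high-sugar library 62 of w1118 r4. The Dcr-2 to r2d2 ratio therefore reached 2227.8 in that group, against a group median of 186.6. The Dcr-2 to AGO2 ratio ran from 3.63 to 6.32 on high sugar and 13.8 to 25.3 on the control diet in w1118 cg. Its range for w1118 r4 was 3.28 to 7.97 on high sugar and 7.55 to 12.6 on the control diet, and its range for 60100 r4 was 4.34 to 9.17 on high sugar and 7.61 to 12.3 on the control diet. Dcr-2 thus stood above AGO2, its most abundant partner, in every library.

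**Figure D4:**
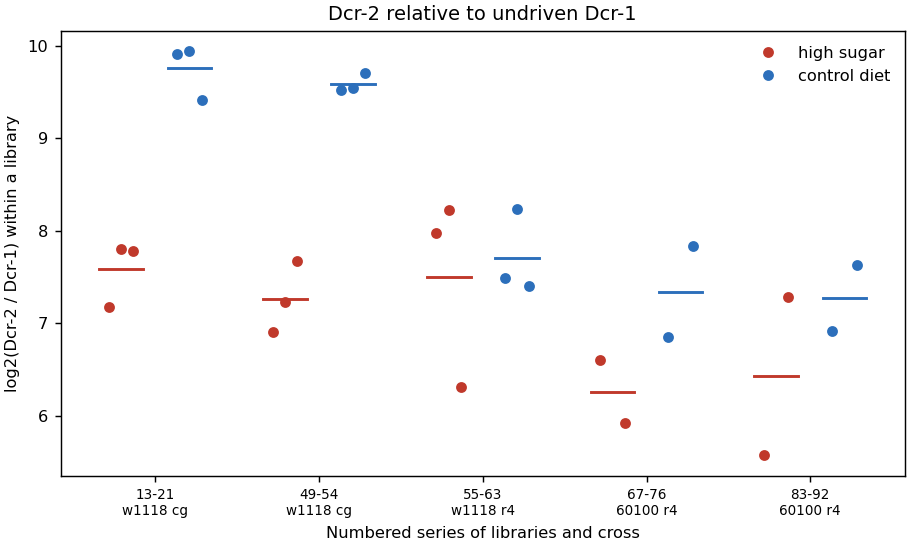
Log2 of the Dcr-2 to Dcr-1 ratio within each of the 26 libraries, by numbered series and cross. Points are libraries and bars are means of a series and diet; the diets stand apart in both w1118 cg series, with means of 7.59 and 7.27 on high sugar and 9.76 and 9.59 on the control diet, and overlap in w1118 r4, with means of 7.5 and 7.71.

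The drivers were compared in the w1118 crosses, which differ in the GAL4 line and in the numbered series, so driver and series cannot be told apart. On the control diet Dcr-2 was 1.08 ± 0.39 log2 units higher in w1118 cg than in w1118 r4 (SE, limma adjusted p = 0.0347). On high sugar the difference was 0.57 ± 0.39 and did not pass (adjusted p = 0.264), and averaged over the diets it was 0.82 ± 0.27 (adjusted p = 0.0160). Dcr-2 was not alone: of the 6 genes tested, r2d2, AGO1, Dcr-2 and AGO2 were higher in w1118 cg and loqs was lower, 5 in all, against 50.4% of all features, 26.9% higher and 23.5% lower. The difference averaged over the diets was 1.18 ± 0.19 for r2d2 (limma adjusted p = 3.07e-05), 0.93 ± 0.26 for AGO1 (adjusted p = 0.00581), 0.47 ± 0.16 for AGO2 (adjusted p = 0.0164) and -0.90 ± 0.34 for loqs (adjusted p = 0.0337). The estimated differences of the undriven r2d2 and AGO1 were thus above the 0.82 of the driven Dcr-2, but the genes were not compared by a test. Their confidence intervals overlapped, at 0.79 to 1.58 for r2d2, 0.38 to 1.47 for AGO1 and 0.26 to 1.39 for Dcr-2. The loqs call passed under 24 of 38 alternatives, with adjusted p up to 0.141, and was lost without series 49-54 (-0.64), 67-76 or 83-92 (-0.90 each) and without library 14 (-0.76), 52, 53, 54 or 55 (-0.82 each), 57 (-0.91), 62 (-0.79) or 63 (-0.66). The AGO1 call was lost without series 13-21 (0.62, adjusted p = 0.101). The AGO2 call was lost without library 55 or 57 (0.39 each) or 62 (0.42), without series 13-21 (0.45), after scaling to a common upper quartile (0.35, adjusted p = 0.0854) and after quantile normalization (0.38, adjusted p = 0.0655), and the Dcr-2 call was lost after quantile normalization too (0.72, adjusted p = 0.0727). The Dcr-2 call was also lost with library 57 (0.64) or 63 (0.61) left out, and on the control diet with library 49 (1.01), 50 (1.03), 55 (1.08) or 57 (0.71) left out. Of salivary gland markers, 8 genes of glue proteins and other gland products, all tested, 2 were higher and 0 lower in w1118 cg (limma, average of the diets), beside 26.9% and 23.5% of all features, with a list median of 2.60. Their sum in w1118 cg was 5.58 to 6045.4 on high sugar and 33.8 to 3651.3 on the control diet, while in w1118 r4 it was 91 to 119 on high sugar and 15.1 to 204.9 on the control diet, with ng2 at 0. The part of such cells in the difference was not tested.

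On single diets, 4 of 6 passed on the control diet and 2 of 6 on high sugar, with 34.7% and 34.1% of all features called. AGO1 was 1.46 higher in w1118 cg on the control diet (limma adjusted p = 0.00534) and r2d2 1.06 higher (adjusted p = 0.00467), while the Dcr-1 difference was -0.45 (adjusted p = 0.0296). The Dcr-1 call was lost after quantile normalization (-0.56, adjusted p = 0.0585), without series 13-21 (-0.32) and without library 13 (-0.42), 14 (-0.41), 55 or 56 (-0.39 each), and the r2d2 call without series 13-21 (0.84, adjusted p = 0.0548) or library 55 (0.80). On high sugar r2d2 was 1.31 higher (adjusted p = 0.000903) and AGO2 0.81 higher (adjusted p = 0.00741). The Dcr-2 to Dcr-1 ratio was 1.92-fold higher in w1118 cg within diets, a log2 difference of 0.94 (exact permutation of driver labels within diet, two-sided, p = 0.0157, 0.0235 after adjustment over 3 ratio tests). That direction depended on the partner. The log2 difference was 0.34 with AGO2 (exact permutation p = 0.207), -0.20 with AGO1 (exact permutation p = 0.481), -1.46 with r2d2 (exact permutation p = 0.00935) and -0.09 with the mean of 4 partners (exact permutation p = 0.752). The values with r2d2 and with the mean include library 62, with r2d2 at 0.00683, and were not tested without it. Leaving out library 63, the high-sugar w1118 r4 library with the lowest Dcr-2 of its group, brought the ratio to Dcr-1 down to 0.72 (exact permutation p = 0.0863). The call was also lost without series 13-21 (0.82, exact permutation p = 0.125) and without 49-54 (1.07, exact permutation p = 0.06).

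The collagen IV genes, near which the cg-GAL4 regulatory DNA lies, were not called for diet. Cg25C (Col4a1) averaged 3.04 ± 1.90 on high sugar and 1.90 ± 0.520 on the control diet in w1118 cg (SD, n = 6 each). The 2 series of this cross differed. In 49-54 every high-sugar library was higher (1.06), as for 18.9% of all features, and in 13-21 the diets overlapped (-0.18). Its change in w1118 cg was 0.44 ± 0.27 (SE, limma adjusted p = 0.365), and 1.06 with series 13-21 left out. Over the alternatives the adjusted p ran from 0.0499 to 0.957 (limma). In w1118 r4 it averaged 4.07 ± 0.683 on high sugar and 3.78 ± 1.59 on the control diet (n = 3 each). Its diet change within series was 0.37 ± 0.18 (SE, limma adjusted p = 0.123), that of vkg, the other collagen IV gene, was 0.12 ± 0.17 (adjusted p = 0.611). Cg25C was lower in w1118 cg than in w1118 r4, with a difference of -0.78 ± 0.30 averaged over the diets (adjusted p = 0.0364), but of -0.24 with series 13-21 left out, which did not pass (adjusted p = 0.475; it passed under 29 of 41 alternatives).

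The stocks were compared in the r4 crosses, in which stock and series cannot be told apart either. Over all features the median difference of 60100 r4 over w1118 r4, as the average of the diets, was 0.25. Dcr-2 was not shown to differ: -0.53 ± 0.30 averaged over the diets (SE, limma adjusted p = 0.158, 95% interval -1.14 to 0.08). It passed with library 92 left out (-0.71, adjusted p = 0.0441) and after scaling to a common upper quartile (-0.87, adjusted p = 0.0329) or quantile normalization (-1.08, adjusted p = 0.0232). AGO2 was lower in 60100 r4, with a difference of -0.52 ± 0.17 (adjusted p = 0.0186, passed under 37 of 41 alternatives but not with means of the 60100 r4 library pairs, at -0.49, or with series 67-76, library 56 or library 61 left out, at -0.47, -0.37 and -0.46), the 1 member of 6 called, against 38.9% of all features, 30.0% higher and 8.86% lower. On high sugar AGO1 and AGO2 passed, 2 of 6 against 29.9% of features, with -1.18 (adjusted p = 0.0307) and -0.63 (adjusted p = 0.0494). The AGO2 call held under 13 of 41 alternatives, with adjusted p from 0.00591 to 0.308, and was lost under most left-out libraries. The AGO1 call held under 31 of 38 and was lost with library 61 (-0.99), 62 (-1.19) or 76 (-0.71) left out. Both were lost with series 67-76 left out, at -0.78 for AGO1 (adjusted p = 0.183) and -0.41 for AGO2 (adjusted p = 0.308). On the control diet 0 of 6 passed with limma, 0 of 6 at an unadjusted p under 0.05, against 15.6% of features. The Dcr-2 to Dcr-1 ratio differed by -0.78 (exact permutation of stock labels within diet, two-sided, p = 0.0678), and passed with library 63 (-1.03), 68 (-0.89) or 92 (-0.90) left out. Of 7 muscle markers tested, 5 were higher in 60100 r4 and 0 lower (limma, average of the diets), beside 30.0% and 8.86% of all features, with a median of 1.29. The sum over 8 such markers was 15 to 42 on high sugar and 9.01 to 15.5 on the control diet in 60100 r4, while w1118 r4 had 8.15 to 8.96 on high sugar and 5.53 to 8.66 on the control diet. Midgut and salivary gland markers were read in the same way. Of 9 midgut markers tested, 2 were higher and 0 lower as an average of the diets, with a median of 1.49. Of 8 salivary gland markers, 1 was higher and 0 lower as an average of the diets, with a median of 1.95. Neither count of higher markers exceeds the share of all features, 30.0%. On high sugar 7 of the midgut markers were higher and 0 lower, with a median of 4.01. There 29.9% of all features were called in either direction. The part of any of these tissues in the differences was not tested.

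Across the 6 groups, the mean Dcr-2 level ran from the control w1118 cg libraries over control w1118 r4, control 60100 r4, high-sugar w1118 cg and high-sugar w1118 r4 down to high-sugar 60100 r4. Only the first pair of neighbours in this order did not overlap, at 50.3 for the lowest control w1118 cg library and 50.2 for the highest control w1118 r4 library. Levels of different crosses are not on a common scale.

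The genes most like Dcr-2 across the 26 libraries were named by Pearson correlation of log2(value + 0.1) centred on each series, over 2427 genes with a mean of at least 1. They share the libraries, their scaling and the diet contrast with Dcr-2, so the values are a description. The 5 highest were CG5262 (0.93), CG11486 (0.92), which is PAN3, a subunit of a poly(A)-shortening enzyme, crq (0.90), a scavenger receptor of haemocytes and a member of the haemocyte list, Sap-r (0.90), a lysosomal saposin precursor, and bnb (0.90). All 5 fell on high sugar, by 0.50 for Sap-r up to 1.07 for bnb. The 3 lowest were SpdS (-0.91), the spermidine synthase, CG11999 (-0.90) and CG6020 (-0.90), which is ND-39, a subunit of mitochondrial complex I, and these rose by 0.50 to 0.98. Measured in the same way, the correlation with Dcr-2 was 0.65 for AGO1, 0.51 for r2d2, 0.41 for AGO2, 0.25 for loqs, 0.18 for Dcr-1 and -0.11 for AGO3. Centred on series and diet together it was 0.73 for AGO2, 0.65 for AGO1, 0.46 for AGO3, 0.28 for Dcr-1, 0.21 for r2d2 and -0.30 for loqs, so libraries of 1 series and diet with more Dcr-2 tended to have more AGO2 and AGO1.

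Other genes of the small RNA pathways were read from lists, beside a median of -0.08 over all 6896 features, of which 17.2% fell and 11.1% rose. Of 14 further siRNA pathway genes matched, 13 were tested for diet and 4 fell while 0 rose (limma; 4 lower and 1 higher at an unadjusted p under 0.05), with a list median of -0.12. These were trsn (-0.44), a subunit of the nuclease that activates the siRNA complex, the RNA helicase armi (-0.42), the chaperone organiser Hop (-0.41) and the RNA-binding protein gene Fmr1 (-0.44). Of 20 further microRNA pathway genes, all tested, 10 fell and 1 rose, with a median of -0.25. Those that fell include the deadenylase complex genes Pop2 (-0.49), twin (-0.41), Not1 (-0.66) and Rga (-0.86), the decapping genes Dcp2 (-0.50) and Ge-1 (-0.52), the helicase me31B (-0.48), and gw (-0.49), the Argonaute-1 partner that recruits deadenylases. The other 2 were pasha (-0.38), the Drosha cofactor, and CG1091 (-0.20). Rack1, a ribosomal scaffold protein gene, rose by 0.20 (limma adjusted p = 0.0443), a call that held under 17 of 43 alternatives and was lost after quantile normalization (0.01, adjusted p = 0.928). Among those that fell, the calls held least often for me31B (17 of 43), Rga (21 of 40), pasha (25 of 40) and Ge-1 (28 of 40).

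These counts moved with the series used, as did those over all features, of which 1184 fell with every library used. With series 55-63 left out, 0 siRNA and 2 microRNA pathway genes fell, and 571 of all features. With 67-76 left out, 2 and 2 fell, and 675 of all features. With 83-92 left out, 2 and 5 fell beside 830 features, with 49-54 left out 2 and 5 beside 673, and after quantile normalization 2 and 5 beside 763. With library 67, 68 or 76 left out, 6 microRNA pathway genes fell. By cross, 0 of the 20 microRNA pathway genes fell in w1118 cg (1 at an unadjusted p under 0.05), 2 in w1118 r4 and 8 in 60100 r4, beside 3.9%, 9.02% and 14.4% of all features, so that the counts in the w1118 crosses lie near those shares. Their median was 0.07 in series 13-21, -0.08 in 49-54, -0.26 in 55-63, -0.67 in 67-76 and -0.40 in 83-92. Of 24 piRNA pathway genes matched, 5 reached the mean of 0.1 needed for the test, and 5 were listed at 0 in all libraries. The Tudor-domain genes tud (-0.65) and CG8920 (-0.90) fell, 2 of 5, and 0 rose (limma, with 2 lower and 0 higher at an unadjusted p under 0.05), but 0 fell with series 67-76 left out.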

How the data were processed

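Total RNA depleted of ribosomal RNA was sequenced from 26 libraries, per the labels' protocols. Tools listed are Cufflinks 1.1.0, Bowtie 0.12.7 and TopHat 1.3.2, with the build dm3, per the submitters' processing notes. For annotation, filters, depth and use of strand, the sources used here give nothing. The deposited values were taken as a ratio, length-scaled expression divided by the upper quartile of a library. This was read from the values themselves, as no unit is named. All columns were mapped to samples by their titles. Whether replicates came from separate groups of larvae is not stated, so p-values measure the spread between these samples, which may be technical.

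Tests ran on log2(value + 0.1) in R 4.3.3 with limma 3.58.1, using moderated variances with a trend. They were two-sided and covered the 6896 features whose mean over 26 libraries was at least 0.1; p-values were adjusted after Benjamini and Hochberg and called under 0.05. Fold changes of low genes are understated on this scale. Diet effects came from a model with series and diet, and driver and stock differences from 6 group means sharing 1 spread. Dcr-2 ratios were compared by exact permutation within series or within diet. The fit was tested on simulated data.

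The genes and lists were chosen with earlier results of these data known. The text names all 7 genes, the collagen IV genes, list genes that passed the diet test, from each list up to 4 genes of smallest adjusted p in any comparison, and the 5 genes most and 3 least correlated with Dcr-2. Current gene names came from RefSeq by locus tag (13055 of 14659 matched), an annotation of another build, so no coordinates are given. By those names r2d2 overlaps Cdc14, AGO2 overlaps CG7739, AGO1 overlaps mRpL53 and CG33155, loqs overlaps an antisense RNA and Dcr-2 meets Rab4, so shared reads cannot be told apart. Alternatives were pseudocounts of 1 and 0.01, a mean of at least 1, no filter, 3 other scalings, robust fits with array weights, the cross in place of series, means of the 60100 r4 library pairs, other ratio partners, and leaving out each series and each library. The pairs were libraries 67 and 83, 68 and 84, 75 and 91, and 76 and 92. The titles do not name them as pairs, so this setting is an assumption. A pseudocount of 1 with a mean of at least 1, with and without the cross as the term, was added after seeing the data.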

Additional observations from a re-analysis of the deposited data

Results flagged for a closer look

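Each of the 7 genes and the collagen IV genes was tested in each group of 4 or 6 libraries for a value far from the others. Of 34 such combinations of gene and group, 2 were picked out, where chance alone picks about 1 in 20. The combinations share libraries and are not independent. AGO2 was 2.95 in control library 68 of 60100 r4, against 1.96 to 2.09 in the other 3 control libraries of that cross. The same library had the highest Dcr-2 of its group, 36.4. AGO3 was 0.216 in high-sugar library 19 of w1118 cg, against 0.0761 to 0.122 in the other 5.

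The diet effect on Dcr-1 differed between crosses, by 0.75 log2 units for w1118 cg minus w1118 r4 and with a joint adjusted p of 0.0489 (limma). These calls held under 20 of 39 and 8 of 39 alternatives, and quantile normalization gave a joint adjusted p of 0.615. Sorted by series, every high-sugar library had more Dcr-1 in 13-21 (0.29) and 49-54 (0.20) and every one had less in 55-63 (-0.51) and 67-76 (-0.44), beside 10.4%, 18.9%, 17.9% and 37.7% of all features. Differences between single series were not tested. For AGO2, every high-sugar library was higher in 49-54 (0.47) and lower in 67-76 (-0.97), beside the same 18.9% and 37.7%, and for the collagen IV gene vkg every one was lower in 13-21 (-0.26) and higher in 49-54 (0.68), both w1118 cg series, beside 9.96% and 18.9%. These opposite directions were likewise not tested.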

How the results depend on the processing

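The Dcr-2 fall within series passed under all 43 alternatives, from -1.71 to -1.25, and from -1.62 to -1.41 with 1 library left out (adjusted p 6.16e-06 to 0.00276). Per cross, leaving out 1 library gave -1.80 to -1.60 in w1118 cg, -1.58 to -0.80 in w1118 r4 and -1.78 to -1 in 60100 r4. The w1118 cg fall did not pass without series 49-54 (-1.53, adjusted p = 0.155; 0.000343 to 0.155 over its alternatives). Pair means moved w1118 r4 past the threshold (-1.21, adjusted p = 0.0288; 0.0288 to 0.302) and ended the 60100 r4 call (-1.19, adjusted p = 0.149; 0.00127 to 0.473), as did leaving out series 67-76 (-0.85).

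The control-diet driver difference ran from 0.71 to 1.45 with 1 library left out and did not pass with a common upper quartile (0.97), quantile normalization (0.98), or without series 13-21 (1.3) or 49-54 (0.86), with adjusted p from 0.0148 to 0.241 over its alternatives. Averaged over the diets it ran from 0.61 to 1.01 and failed with quantile normalization (0.72) and without 49-54 (0.70). The averaged stock difference ran from -0.74 to -0.35 and passed with a common upper quartile (-0.87) and quantile normalization (-1.08). Calls turned on libraries 49, 50, 55 and 57 for the control-diet driver difference, 57 and 63 for the average, and 92 for the stock.

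The Dcr-2 to Dcr-1 ratio ran from -1.51 to -1.30 for diet, 0.72 to 1.17 for driver and -1.03 to -0.59 for stock with 1 library left out; leaving out 63, 68 or 92 moved the stock ratio across the threshold. With r2d2 as partner the diet difference was -0.80 and the stock difference -1.85, both with high-sugar library 62, in which r2d2 was 0.00683. The driver difference was 0.34 with AGO2, -0.20 with AGO1, -1.46 with r2d2 and -0.09 with the mean, and the call was also lost without 13-21 (0.82, exact permutation p = 0.125) and without 49-54 (1.07, exact permutation p = 0.06). Dcr-1 in w1118 r4 was 0.04 after quantile normalization. The cause of these changes was not tested.

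Diet calls over all features were 766 higher and 1184 lower, 824 and 763 after quantile normalization, 920 and 1016 after median-of-ratios scaling, 830 and 1059 with a common upper quartile, and 527 and 328 with a mean of at least 1. Driver and stock could not be fitted without series 55-63. No analysis with libraries paired between groups was possible because each library has its own number, shared with no library of another group. The pair means joined libraries of the same cross and diet.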

Other observations

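From the other small RNA lists, genes picked for the smallest adjusted p in any comparison are given here. Several had larger differences between crosses than between diets, where driver or stock and series cannot be told apart. For the averaged driver difference, 1 of 13 siRNA pathway genes tested was higher in w1118 cg and 3 lower. Of 20 microRNA pathway genes 6 were higher and 5 lower, and of 5 piRNA pathway genes 2 and 0. Of all features, 26.9% were higher and 23.5% lower. Averaged over the diets, w1118 cg had more me31B (1.52 ± 0.27 log2 units, SE, limma adjusted p = 0.000107) and more Dcp2, the decapping enzyme (1.27 ± 0.22, adjusted p = 8.3e-05), than w1118 r4, but less Dcp1, its activator (-0.92 ± 0.12, adjusted p = 4.64e-06). The piRNA pathway genes CG3893 (1.74 ± 0.26, adjusted p = 1.46e-05) and tud (1.40 ± 0.24, adjusted p = 5.77e-05) were higher in w1118 cg as well, while the chaperone gene Droj2 was lower (-0.63 ± 0.16, adjusted p = 0.00193). On the control diet Tudor-SN, a nuclease of the siRNA complex, was lower in w1118 cg (-1.20 ± 0.21, adjusted p = 0.000291), and on high sugar armi was higher (0.86 ± 0.18, adjusted p = 0.00115). Rack1 was higher in 60100 r4 than in w1118 r4 (1.18 ± 0.13, adjusted p = 3.6e-07). In that comparison 4 of the 20 microRNA pathway genes were higher and 5 lower, beside 30% and 8.86% of all features. Hop had its strongest change in 60100 r4, where it fell by 0.99 on high sugar (adjusted p = 0.000861). The methyltransferase gene csul had a diet change of -0.82 ± 0.47, which did not pass (adjusted p = 0.19).

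The sum over 8 salivary gland markers differed widely between the w1118 cg series. It ran from 2706.3 to 6045.4 on high sugar and 2177.4 to 3651.3 on the control diet in 13-21, and from 5.58 to 18.5 on high sugar and 33.8 to 604.2 on the control diet in 49-54. Dcr-2 fell in both series.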
